A study of Mus musculus with 16 samples.

Results

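The tissue inhibitors of metalloproteinases (TIMPs) are encoded in the mouse by Timp1, Timp2, Timp3 and Timp4. All non-control array probes named for 1 of these 4 genes were taken, which gave 4 of the 37008 genes and otherwise named transcripts measured, and 9 of the 56605 probes. Timp1 had 1 probe, Timp2 had 2, and Timp3 and Timp4 had 3 each. All 9 passed the filter that left 43268 probes for testing, which asked for detection over background on 4 or more of the 16 arrays irrespective of their groups.

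RNA came from subchondral bone of the medial tibia, cut by laser from 10 µm frozen sections of decalcified epiphyses and pooled within each joint. The mice were male wild-type C57BL6, aged 10 to 12 weeks when both knees were operated on. In the destabilized group the medial meniscotibial ligament was cut, which frees the medial meniscus (DMM) and serves as a surgical model of post-traumatic osteoarthritis. In the sham group the ligament was exposed and left intact, so every mouse, controls included, had an opened joint capsule, and unoperated knees are not part of the comparison. The 4 groups of 4 arrays were DMM at 6 weeks, sham at 6 weeks, DMM at 1 week and sham at 1 week after surgery, with 1 joint of 1 mouse on each array. The mice at 6 weeks were also older than those at 1 week, so time after surgery and age cannot be told apart. Each of 2 slides held 2 arrays of each group, and the number of arrays limits the precision.

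TIMPs are small secreted proteins that fit their amino-terminal domain into the active site of matrix metalloproteinases (MMPs) and so block the breakdown of collagen and other matrix. Timp3 also blocks proteases of the ADAM and ADAMTS families, among them the aggrecanases that cut the cartilage proteoglycan aggrecan. In bone, MMPs made by osteoclasts, osteoblasts and osteocytes take part in matrix removal.

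Levels are given as log2 of the background-corrected intensity minus the 75th percentile of the same array, so that 0 means a signal equal to that percentile. A level cannot be set against that of another probe, because each probe has its own brightness. The 75th percentile of intensity lay between 329 and 873 over the arrays. Between 65.2% and 79.5% of probes on an array were called well above background. The dimmest array was replicate 2 of the 6-week sham group (329, next lowest 471). The marker lists of osteoblasts, osteocytes and osteoclasts were measured in full (9 of 9, 5 of 5 and 7 of 7 genes), and so were those of erythroid cells, B cells, cartilage and skeletal muscle (6 of 6, 6 of 6, 8 of 8 and 6 of 6). Measured means only passing the detection filter, as 28250 of the 37008 genes and otherwise named transcripts did, so it does not show that a cell type was present. In RNA of a dissected tissue, fewer cells of a type and less RNA per cell cannot be told apart.

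Timp1 is the member whose transcription responds most readily to cytokines and growth factors. Its probe lies at chrX:20451675-20451733 on the plus strand of mm9 and starts at position 701 of the transcript NM_001044384. Timp1 lies within the extent of Syn1, the synapsin I gene. The sequence is shown, 5′ to 3′, because this was the 1 TIMP probe to pass the test in any comparison. No run of 16 of its 60 bases occurs in a probe of another gene on the array.

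Timp1 probe: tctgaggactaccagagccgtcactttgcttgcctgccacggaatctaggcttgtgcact

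Timp1 had levels of 2.71, 2.20, 2.78 and 2.99 in DMM bone at 6 weeks and of 1.71, 3.42, 2.24 and 2.83 in sham bone at 6 weeks. It had levels of 4.15, 3.98, 3.60 and 4.32 in DMM bone at 1 week and of 3.49, 3.90, 3.21 and 3.68 in sham bone at 1 week. After DMM every 6-week array lay below every 1-week array, and after sham only replicate 2 at 6 weeks (3.42), the dim array, reached into the 1-week range. The group means were 2.67 ± 0.33 in DMM and 2.55 ± 0.74 in sham bone at 6 weeks, and 4.01 ± 0.31 in DMM and 3.57 ± 0.29 in sham bone at 1 week (SD, n = 4 each). DMM at 1 week was thus the highest group, followed by sham at 1 week, DMM at 6 weeks and sham at 6 weeks. Neighbours in this order at the same time after surgery overlapped, while DMM at 6 weeks and sham at 1 week did not.

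Timp1 fell by 1.18 ± 0.22 (SE) on the log2 scale at 6 weeks against 1 week, averaged over both surgeries, with 8 arrays against 8. That is a level of 0.441 times that at 1 week (95% interval 0.319 to 0.610), lower on 8 of 8 arrays at 6 weeks than the 1-week mean of the same surgery. This comparison was added after the data were seen, and its limma p, 2-sided and adjusted over all 43268 probes, was 0.0347. It was the 1 call among the 9 TIMP probes, where 0.832% of all probes were called and 0.275% were called as lower. Within the slides the difference was -1.37 and -0.99.

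The call depended on which arrays entered. It was kept without replicate 2 of the 6-week sham group (adjusted p = 0.0245, difference -1.32) and without replicate 3 of the 6-week DMM, 1-week DMM or 1-week sham group (0.0307, 0.0174 and 0.0337). It was lost without any 1 of the other 12 arrays. Those p-values ran from 0.0738 to 0.0900 without replicate 1, 2 or 4 of DMM at 6 weeks, and from 0.0589 to 0.0739 without replicate 1, 3 or 4 of sham at 6 weeks. They ran from 0.0589 to 0.0783 without replicate 1, 2 or 4 of DMM at 1 week, and from 0.0659 to 0.0979 without replicate 1, 2 or 4 of sham at 1 week. The difference itself stayed between -1.32 and -1.04. The adjusted p also depends on all other tested probes, and 0 to 2405 probes were called with 1 array left out. With no filter on dim probes the adjusted p was 0.0576.

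The planned comparisons within each surgery gave the same sign without passing the threshold. After DMM, Timp1 differed by -1.34 ± 0.31 between 6 weeks and 1 week (limma adjusted p = 0.256), and after sham by -1.02 ± 0.31 (adjusted p = 0.602). In both comparisons 0% of all probes were called. The separation of the 4 arrays at 6 weeks from the 4 at 1 week after DMM was found for 2.73% of all probes in the same direction. Whether the time difference itself differed between the surgeries gave -0.32 ± 0.44 (adjusted p = 1.00).

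**Figure D1:**
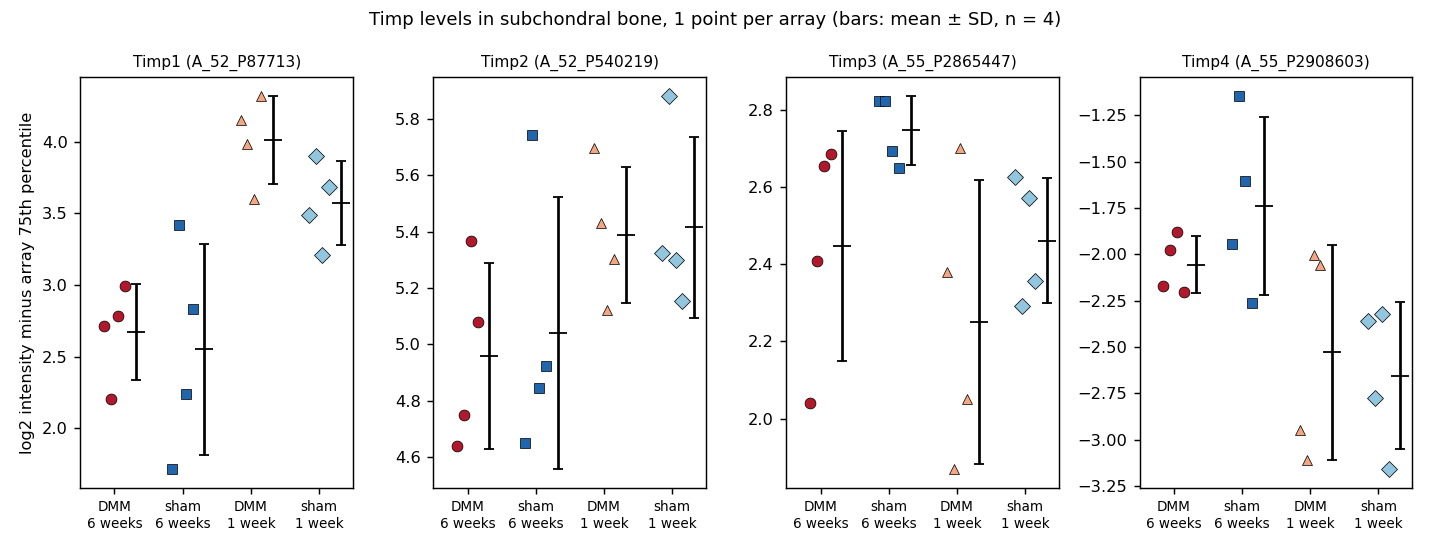
Level of each TIMP gene (1 panel a gene, probe with the highest mean) on every array, as log2 intensity minus the array's 75th percentile. Groups run from DMM and sham at 6 weeks to DMM and sham at 1 week, with bars for mean and SD of 4 arrays. Timp1 averaged 2.67 and 2.55 at 6 weeks and 4.01 and 3.57 at 1 week, and of the 8 arrays at 6 weeks only 1 sham array reaches into the 1-week range.

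Timp1 did not pass the test for DMM against sham at either time. At 6 weeks the DMM arrays (2.20 to 2.99) lay inside the range of the sham arrays (1.71 to 3.42), with a difference of 0.12 ± 0.31 (limma adjusted p = 0.999, interval -0.54 to 0.78). At 1 week all 4 DMM arrays lay above the sham mean, yet the groups overlapped, and the difference was 0.44 ± 0.31 (adjusted p = 1.0, interval -0.22 to 1.10). The 6-week value turned negative without replicate 1 of sham at 6 weeks (-0.16) and became 0.41 without replicate 2.

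Timp2 encodes the inhibitor that, at the cell surface, also joins Mmp14 in activating the precursor of Mmp2. The brighter of its 2 probes lies at chr11:118163146-118163205 on the minus strand of mm9 and starts at position 2791 of NM_011594. The other starts at position 652 of the same transcript. Its ends, at chr11:118171964-118178741, are 6778 bases apart in the genome, so its 60 bases cross an intron. It is shown because only spliced RNA holds this stretch unbroken.

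Timp2 intron-crossing probe: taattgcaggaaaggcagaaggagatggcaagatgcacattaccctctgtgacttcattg

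The brighter Timp2 probe had levels of 4.64, 4.75, 5.37 and 5.08 in DMM bone at 6 weeks and of 4.65, 5.74, 4.85 and 4.92 in sham bone at 6 weeks. It had 5.70, 5.43, 5.12 and 5.30 in DMM bone at 1 week and 5.32, 5.88, 5.30 and 5.15 in sham bone at 1 week. The group means were 4.96 in DMM and 5.04 in sham bone at 6 weeks, and 5.39 in DMM and 5.41 in sham bone at 1 week, with SDs of 0.24 to 0.48. All groups overlapped, and the order of the means from the highest was sham at 1 week, DMM at 1 week, sham at 6 weeks and DMM at 6 weeks. The 6-week minus 1-week difference over both surgeries was -0.40 ± 0.18 (limma adjusted p = 0.270), in the same direction on 7 of 8 arrays. Within the slides it was -0.64 and -0.17.

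The intron-crossing Timp2 probe had 1.98, 1.36, 1.63 and 1.90 in DMM bone at 6 weeks and 1.27, 0.25, 1.41 and 1.85 in sham bone at 6 weeks. It had 2.32, 1.40, 1.91 and 2.19 in DMM bone at 1 week and 1.53, 2.13, 2.05 and 2.11 in sham bone at 1 week. The lowest value, 0.25, and the second highest of the brighter probe, 5.74, came from the same dim 6-week sham array. Over 16 arrays the 2 probes had a Pearson correlation of 0.009, against 0.50 over 15 arrays without it, as a description. The difference with time was -0.50 ± 0.21 (adjusted p = 0.254), so both probes gave a lower mean at 6 weeks without passing the test. DMM minus sham was 0.52 ± 0.30 at 6 weeks on this probe and -0.08 ± 0.25 on the brighter probe (adjusted p = 0.999 for both). Without the dim array these became 0.21 and 0.15.

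Timp3 encodes the matrix-bound inhibitor with the widest range of targets. Its gene lies within the extent of Syn3, and its 3 probes lie on the plus strand of chromosome 10 in mm9. The probe used for the gene, at chr10:85812041-85812100, had levels of 2.04, 2.41, 2.66 and 2.69 in DMM bone at 6 weeks and of 2.82, 2.82, 2.69 and 2.65 in sham bone at 6 weeks. It had 2.38, 1.87, 2.70 and 2.05 in DMM bone at 1 week and 2.63, 2.29, 2.57 and 2.36 in sham bone at 1 week. The means were 2.45 in DMM and 2.75 ± 0.09 in sham bone at 6 weeks, and 2.25 in DMM and 2.46 in sham bone at 1 week. The sham arrays at 6 weeks had the highest mean and were the most alike. They overlapped both DMM groups, and only the sham arrays at 1 week lay wholly below them. The other 3 groups, with SDs of 0.16 to 0.37, overlapped each other.

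After sham, every 6-week array of this Timp3 probe lay above every 1-week array. The difference was 0.29 ± 0.20 (limma adjusted p = 0.814), and 5.44% of all probes had such a separation after sham, in either direction, while 1.96% of all probes had it as higher at 6 weeks. DMM minus sham was -0.30 ± 0.20 at 6 weeks and -0.21 ± 0.20 at 1 week, and -0.26 ± 0.14 over both times (interval -0.55 to 0.04, adjusted p = 1.00). The 4 DMM arrays at 6 weeks all lay below the sham mean, but within the slides the 6-week difference was -0.60 and -0.002.

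The second Timp3 probe, at chr10:85811696-85811755, starts at position 4126 of the transcript NM_011595, where the first starts at 4471, and it followed the first (r = 0.79 over 16 arrays). Its levels were 1.58 to 2.08 in DMM and 1.69 to 2.41 in sham bone at 6 weeks, and 1.09 to 2.12 in DMM and 1.45 to 2.01 in sham bone at 1 week. DMM minus sham over both times was -0.23 ± 0.16 (adjusted p = 1.00), the same sign as on the first probe. The third probe, at chr10:85769407-85769466, was designed on another transcript (ENSMUST00000151134), shares a run of 16 bases with 1 probe of another gene on the array, and was dim, with levels of -3.90 to -2.57 in DMM and -2.94 to -2.48 in sham bone at 6 weeks, and of -3.14 to -2.71 in DMM and -3.60 to -2.88 in sham bone at 1 week. Its DMM difference was -0.47 ± 0.28 at 6 weeks and 0.40 ± 0.28 at 1 week. The change between them, -0.87 ± 0.39, had the smallest unadjusted p of the 9 probes in that comparison (0.0428, limma adjusted p = 1.00), where 0.726% of all probes were under 0.05 before adjustment.

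Timp4 encodes the member with the narrowest tissue distribution, best known from heart and brain. Its gene lies within the extent of Syn2 and its probes lie on the minus strand of chromosome 6 in mm9. The probe used for the gene, at chr6:115195840-115195899, had levels of -2.17, -1.98, -1.88 and -2.20 in DMM bone at 6 weeks and of -1.94, -1.15, -1.60 and -2.26 in sham bone at 6 weeks. It had -2.94, -3.11, -2.00 and -2.06 in DMM bone at 1 week and -2.36, -2.77, -2.32 and -3.16 in sham bone at 1 week. After sham the 6-week arrays all lay above the 1-week arrays, whereas after DMM replicates 3 and 4 at 1 week lay within the 6-week range. The group means were -2.06 ± 0.15 in DMM and -1.74 ± 0.48 in sham bone at 6 weeks, and -2.53 ± 0.58 in DMM and -2.65 ± 0.39 in sham bone at 1 week. Neighbours in the order of the means, from sham and DMM at 6 weeks down to DMM and sham at 1 week, overlapped.

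The second Timp4 probe, at chr6:115196120-115196179 on the same transcript NM_080639, varied closely with the first (r = 0.93 over 16 arrays, 0.94 without the dim array). It had -2.67, -2.58, -2.29 and -2.40 in DMM bone at 6 weeks and -2.51, -2.23, -2.07 and -2.65 in sham bone at 6 weeks. It had -3.25, -3.23, -2.55 and -2.47 in DMM bone at 1 week and -2.93, -3.08, -2.80 and -3.15 in sham bone at 1 week. As on the first probe, the sham groups did not overlap and the DMM groups did, and 1.96% of all probes had such a separation after sham as higher at 6 weeks. The time difference after DMM minus that after sham was -0.44 ± 0.42 on the first probe and -0.23 ± 0.29 on the second (limma adjusted p = 1.00 for both), so a difference between the surgeries was not shown. The third Timp4 probe, at chr6:115196869-115196928 and designed on AK040814, was well above background on 13 of 16 arrays. Its levels were -5.14 to -3.72 in DMM and -5.49 to -2.25 in sham bone at 6 weeks, and -5.27 to -3.48 in DMM and -4.97 to -3.56 in sham bone at 1 week. It did not follow the others (r = 0.25 and -0.008), and its values ran from -4.45 to -2.25 on the first slide and from -5.49 to -4.32 on the other.

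Averaged over both surgeries, the 6-week minus 1-week difference was 0.69 ± 0.21 on the first Timp4 probe (limma adjusted p = 0.107) and 0.51 ± 0.15 on the second (adjusted p = 0.0976). Both differences had the same direction on 8 of 8 arrays at 6 weeks, but neither passed the threshold. After sham they were 0.91 ± 0.30 and 0.63 ± 0.21 (adjusted p = 0.602 for both), and after DMM 0.47 ± 0.30 and 0.39 ± 0.21 (adjusted p = 0.661 and 0.562). The third probe gave 0.25 ± 0.42 (adjusted p = 0.849). DMM minus sham was -0.32 ± 0.30 at 6 weeks and 0.13 ± 0.30 at 1 week on the first probe, with intervals of -0.95 to 0.31 and -0.50 to 0.75.

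**Figure D2:**
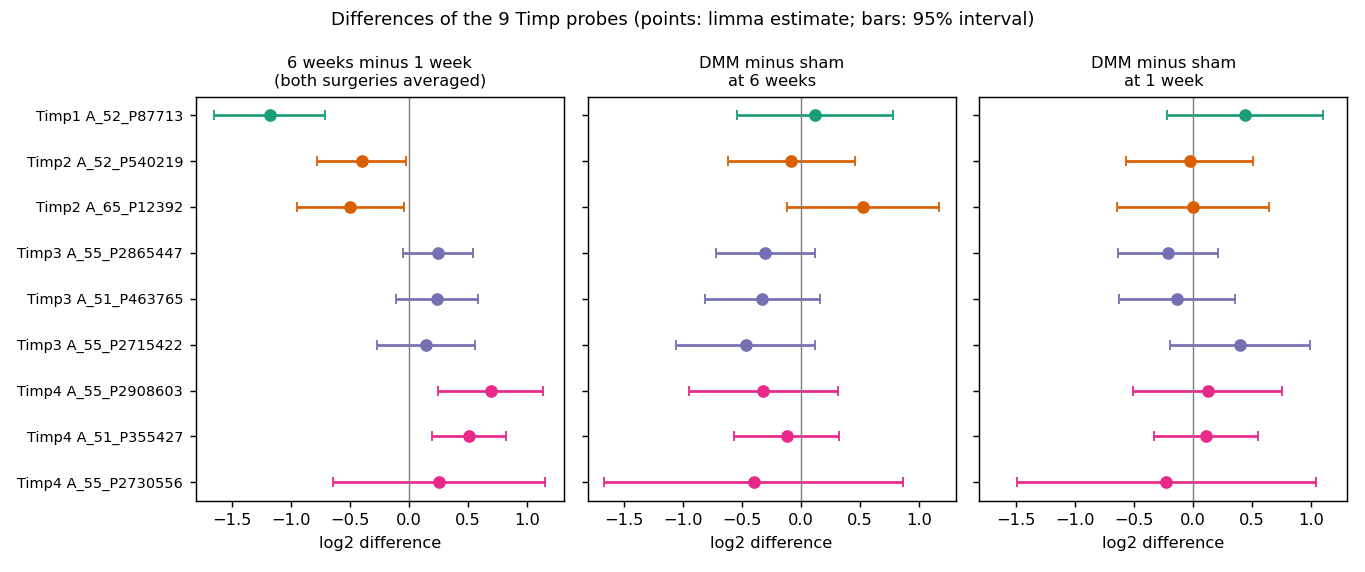
Log2 differences of the 9 TIMP probes in 3 comparisons, with limma estimates as points and 95% intervals as bars. With time, Timp1 lies at -1.18 and the first Timp4 probe at 0.69, and the DMM against sham intervals all cover 0 at both times.

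Across the family, none of the 9 probes passed the test for DMM against sham. At 6 weeks 0 of 9 were called by limma, 0 of 9 had an unadjusted p under 0.05, and 7 of 9 estimates were below 0. At 1 week 0 of 9 were called, 0 of 9 had an unadjusted p under 0.05, and 4 of 9 estimates were below 0. Over all probes 0% were called in each comparison, and 0.904% at 6 weeks and 0.975% at 1 week had an unadjusted p under 0.05. The 95% intervals of the 9 probes still allowed differences from -1.66 to 1.17 at 6 weeks and from -1.49 to 1.10 at 1 week, so these data do not show that the groups are alike. With time, 5 of 9 probes had an unadjusted p under 0.05 in the average over both surgeries, where 16.5% of all probes did.

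Some of the 4 genes varied together over the arrays. The permutations ignored the groups, so their p-values also take in shared differences between groups and do not test covariation within a group. Of 6 gene pairs compared over 16 arrays, Timp1 and Timp2 had the highest correlation (Pearson r = 0.77, Spearman rho = 0.74, permutation p adjusted over the pairs 0.00402 and 0.0110). Within the slides r was 0.88 and 0.55 (8 arrays each, exact permutation p adjusted 0.0467 and 0.410), and rho was 0.67 and 0.43 (exact permutation p adjusted 0.166 and 0.359). Without the 2 arrays farthest from the Timp1 median r was 0.66 over 14 arrays (permutation p 0.0104, adjusted 0.0623) and did not pass the threshold. Leaving out the extremes narrows the range and the number of arrays, so this cannot show whether the correlation rested on them. With the group means removed, which takes out time and surgery, r was 0.74, as a description.

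Timp3 and Timp4 also varied together (r = 0.59, rho = 0.67, permutation p adjusted 0.0485 and 0.0180). Within the slides r was 0.69 and 0.35, and without the 2 farthest arrays r was 0.56 (permutation p adjusted 0.114) and rho 0.70 (permutation p adjusted 0.0412). With group means removed r was 0.44 and rho 0.35. Timp1 had negative correlations with Timp4 (r = -0.52, rho = -0.62, permutation p adjusted 0.0717 and 0.0247) and with Timp3 (r = -0.50, rho = -0.51, adjusted 0.0717 and 0.0696). With group means removed the first of these was 0.03 and the other -0.18. Within the slides they were -0.56 and -0.44 for Timp4 and -0.38 and -0.81 for Timp3, and without the 2 farthest arrays -0.52 and -0.49. Timp2 had r = -0.11 with Timp3 and -0.25 with Timp4 (permutation p adjusted 0.675 and 0.410). Without the dim 6-week sham array the pair of Timp2 and Timp4 had r = -0.59 (permutation p adjusted 0.0403).

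Among 19750 named genes, those that followed each TIMP most closely were found by the lower of the Pearson correlations over 16 arrays and over the 15 without the dim array. They are given as a description, and the arrays share groups and slides. For Timp1 they were Tsen34, a subunit of the tRNA splicing endonuclease (r = 0.94 over 16 arrays), Rcn3, a calcium-binding protein of the secretory pathway (0.92), P3h4 of the prolyl 3-hydroxylase family (0.91), the collagen prolyl 4-hydroxylase subunit P4ha2 (0.91) and the collagen VI chain Col6a2 (0.90). Rcn3 averaged 4.81 in DMM and 4.62 in sham bone at 6 weeks, against 5.72 in DMM and 5.44 in sham bone at 1 week. This is the order of Timp1, which choosing genes by likeness on the same arrays favours. P3h4 and P4ha2 had that order too. Tsen34 (3.60 in DMM, 3.62 in sham) and Col6a2 (-0.09 in DMM, 0.04 in sham) had sham above DMM at 6 weeks. With group means removed these 5 correlations were 0.74 to 0.88.

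For Timp2 the closest were Tpm1, which encodes a tropomyosin (r = 0.95), Zfp462, Shox2, a homeobox factor of limb bones, Nectin1 and Slc35e4 (0.94 to 0.95). For Timp3 they included the laminin-binding integrin subunit Itga6 (0.90), Gata2, a factor of blood stem cells and of megakaryocyte and endothelial cells, Ankrd35 and Pcp4l1 (0.87 to 0.88). For Timp4 they were the phospholipase Pla2g12a (0.94), Cd79a of the B cell receptor (0.91), Dtx1, a regulator of Notch signalling (0.91), Rmnd5a (0.91) and Pklr, the pyruvate kinase of red cells and liver (0.87). Cd79a is 1 of the 6 B cell markers whose values are given below.

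**Figure D3:**
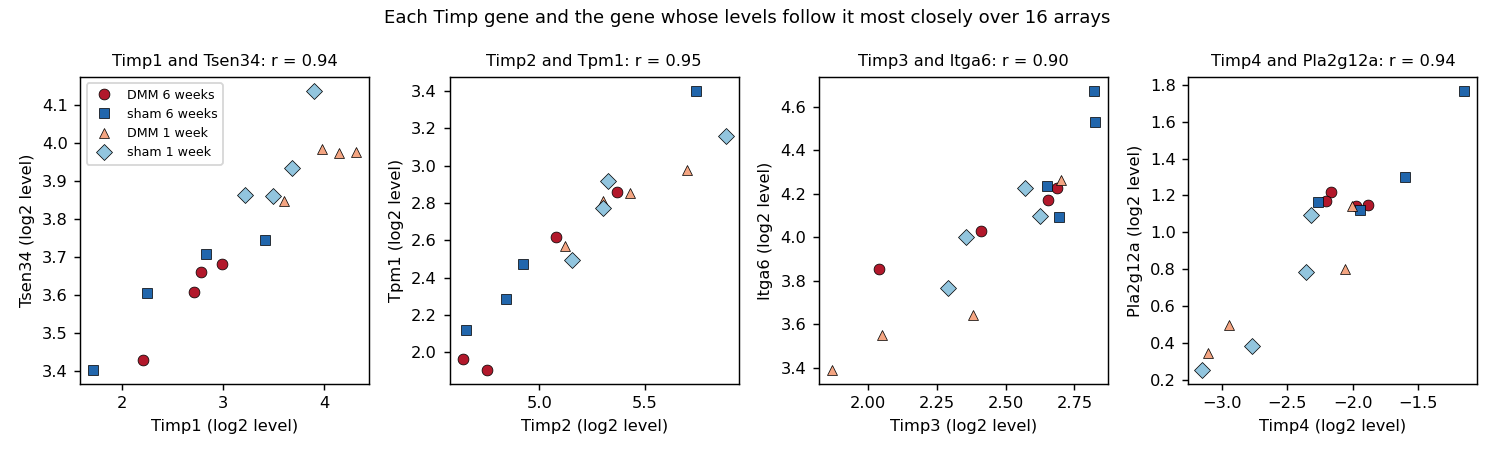
Levels of each TIMP gene (x axis, log2 level) against those of the gene with the closest pattern (y axis, log2 level), 1 point an array, coloured by group. The correlations over 16 arrays are 0.94 for Timp1 with Tsen34, 0.95 for Timp2 with Tpm1, 0.90 for Timp3 with Itga6 and 0.94 for Timp4 with Pla2g12a.

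The proteases that TIMPs inhibit were read in the same comparison with time. There 55.6% of 28250 genes had a higher mean at 6 weeks. Of all 43268 probes, 0.832% were called and 16.5% had an unadjusted p under 0.05 (limma). Of 21 MMP genes 16 were tested, 13 had a lower mean at 6 weeks and 1 of these passed the test, with a median difference of -0.34 against 0.04 over 28250 genes. The called one was Mmp9, a gelatinase made mainly by osteoclasts in bone, which fell by 0.80 ± 0.12 (limma adjusted p = 0.0347). Mmp14, the membrane protease that Timp2 binds, differed by -0.84 ± 0.24 (adjusted p = 0.0891). All 9 ADAM and ADAMTS genes were tested, 6 had a lower mean and 1 was called, with a median of -0.50. Adamts4, an aggrecanase, fell by 1.25 ± 0.25 (adjusted p = 0.0400), and within the slides it differed by -1.81 and -0.69. Adamts5, the other main aggrecanase, differed by -0.59 ± 0.15 (adjusted p = 0.0758).

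Among other inhibitors and uptake receptors of metalloproteinases 8 of 9 genes were tested, 6 had a lower mean and 0 were called (3 with an unadjusted p under 0.05, all lower), with a median of -0.38. Pcolce, an enhancer of procollagen processing, differed by -0.96 ± 0.24 (limma adjusted p = 0.0641), and Reck, a membrane-anchored MMP inhibitor, by -0.34 ± 0.15 (adjusted p = 0.273). Of the 9 cell surface and extracellular partners of TIMPs 6 had a lower mean and 0 were called (2 lower and 2 higher with an unadjusted p under 0.05), with a median of -0.17. Efemp1, an extracellular protein that binds Timp3, differed by 0.58 ± 0.19 (adjusted p = 0.131). Of the synapsin genes that surround Timp1, Timp4 and Timp3, Syn1 differed by -0.44 ± 0.21 and Syn2 by -0.46 ± 0.25, and 0 of 3 were called or had an unadjusted p under 0.05. Syn2 and Timp4 had differences of opposite sign, while Syn1 and Timp1 were both lower and Syn3 and Timp3 both higher at 6 weeks.

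The 17 inducers and mediators of Timp1 transcription are cytokines, their receptors and the STAT, AP-1 and ETS factors they act through. Of these 12 had a lower mean at 6 weeks and 1 was called, with a median of -0.34. Fosl2, a Fos-family subunit of AP-1, fell by 0.71 ± 0.15 (limma adjusted p = 0.0469). It was not called after quantile normalization (0.0521), on the authors' deposited values (0.0508) or with no filter (0.0761). Stat3, the mediator of interleukin-6 family signals, differed by -0.53 ± 0.15 (adjusted p = 0.0892). The calls of Mmp9, Adamts4 and Fosl2 were kept and lost without the same arrays as that of Timp1. Their adjusted p-values without 1 array ranged from 0.0139 to 0.0979, from 0.0165 to 0.112 and from 0.0245 to 0.119.

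The Timp1 promoter from RefSeq (GRCm38.p6, chrX:20869916-20870215, plus strand) is shown because AP-1 and ETS factors are among these 17 genes. It covers 250 bases before the transcription start and 50 after it. Capitals mark the matches to TGAGTAA, an AP-1-like element, and CAGGAAG, an ETS-like element, both searched on both strands.

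Timp1 promoter: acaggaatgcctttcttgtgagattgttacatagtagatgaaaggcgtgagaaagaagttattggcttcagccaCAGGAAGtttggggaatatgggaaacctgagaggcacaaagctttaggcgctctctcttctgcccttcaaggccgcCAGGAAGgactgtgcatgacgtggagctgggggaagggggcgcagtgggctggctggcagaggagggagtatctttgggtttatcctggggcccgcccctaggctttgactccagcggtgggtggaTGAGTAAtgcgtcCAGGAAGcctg

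TGAGTAA matched once in the Timp1 window, at positions 277 to 283, and in none of the windows of Timp2, Timp3 and Timp4, and 2.68% of 32851 promoters of this length held it. CAGGAAG matched 3 times for Timp1, at positions starting at 75, 151 and 290. It matched once each for Timp3 and Timp4 and not for Timp2, and 13.3% of promoters held it at least once. In the Timp1 window the TGAGTAA match and the CAGGAAG match at 290 lie after the transcription start. The matches do not overlap each other. TGAGTAA and CAGGAAG were set by hand before the search and not derived from these data. Their matches are a description and no test of a difference between the 4 genes. Which factors act on Timp1 was not tested. The AP-1 consensus TGANTCA (7.81% of promoters) and the STAT motif TTCNNNGAA (8.3%) matched in none of the 4 windows.

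**Figure D4:**
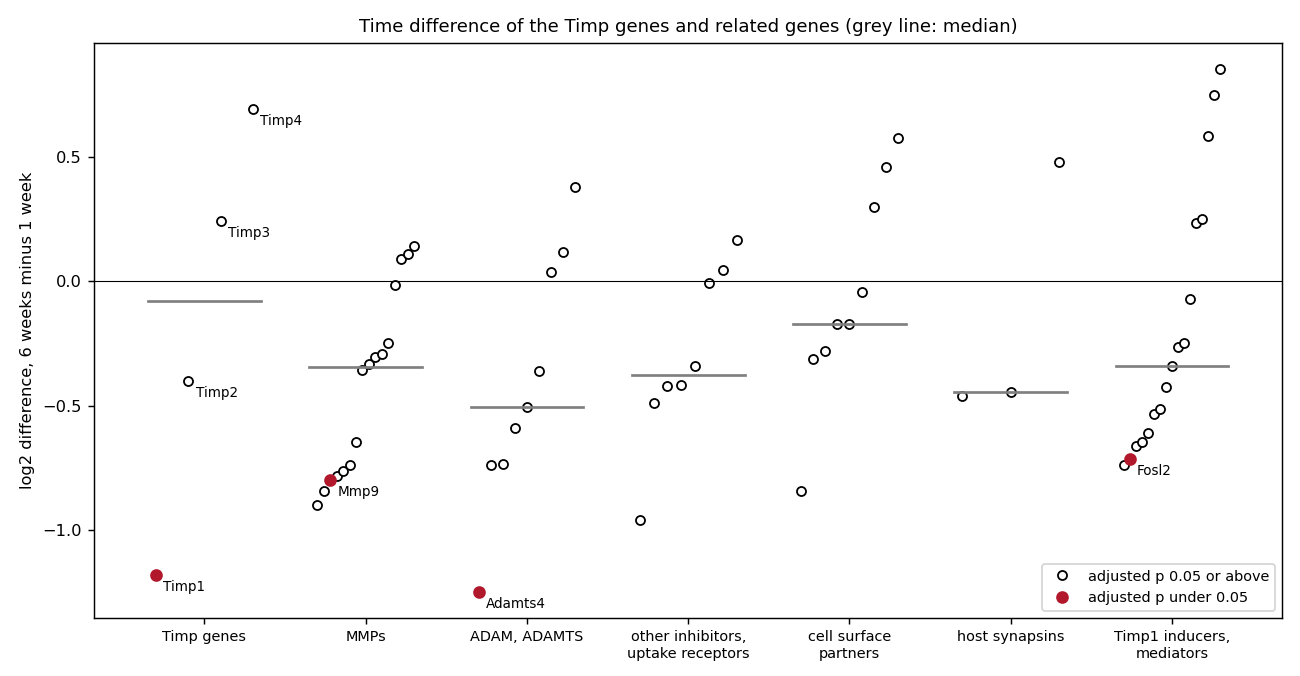
Log2 difference between 6 weeks and 1 week, averaged over both surgeries, for the TIMP genes and the tested genes of 6 related lists (1 point a gene, grey lines for medians). Filled points passed the threshold of 0.05 and are Timp1 (-1.18), Mmp9 (-0.80), Adamts4 (-1.25) and Fosl2 (-0.71).

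DMM against sham gave 0 calls in each of these 6 lists at both times, and 0 of their genes had an unadjusted p under 0.05 (limma). The genes with the smallest p among proteases at 6 weeks were Mmp27 (0.86 ± 0.57), Mmp2 (0.48 ± 0.48), Adam19 (0.28 ± 0.17) and Adamts5 (-0.23 ± 0.22). At 1 week they were Mmp9 (-0.26 ± 0.17), Mmp23 (0.48 ± 0.35), Adamts5 (0.36 ± 0.22) and Adamts1 (0.37 ± 0.30). In the list of other inhibitors and uptake receptors, which also holds the enhancer Pcolce, they were Tfpi2 (1.51 ± 0.79) and Reck (0.33 ± 0.21) at 6 weeks. At 1 week they were Pcolce (0.64 ± 0.34) and Thbs2 (0.68 ± 0.37) in this list. None of these differences passed the threshold (adjusted p = 0.999 at 6 weeks and 1.0 at 1 week).

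Marker lists of cell types were read in the same comparison with time. The counts below stand beside 55.6% of 28250 genes with a higher mean at 6 weeks. They also stand beside 0.832% of all probes called and 16.5% with an unadjusted p under 0.05 (limma). Of the osteoclast markers 7 of 7 had a lower mean at 6 weeks, with a median of -0.80 and 1 call, Mmp9. Their summed level ranged from 8.14 to 9.04 in DMM and 7.78 to 9.15 in sham bone at 6 weeks, and from 8.65 to 9.58 in DMM and 8.96 to 9.58 in sham bone at 1 week. Of the fibroblast markers 7 of 7 had a lower mean, with a median of -0.68 and 0 calls (4 with an unadjusted p under 0.05). Their summed level ranged from 6.51 to 7.28 in DMM and 6.09 to 6.77 in sham bone at 6 weeks, and from 6.79 to 8.02 in DMM and 6.26 to 7.34 in sham bone at 1 week.

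In the direction of Timp4, 6 of 6 erythroid markers (median 1.21, 1 called, Alas2), 6 of 6 B cell markers (median 0.86, 0 called, 5 with an unadjusted p under 0.05) and 6 of 7 megakaryocyte markers (median 0.81, 0 called, 6 with an unadjusted p under 0.05) had higher means at 6 weeks. The summed erythroid level ranged from 8.21 to 8.98 in DMM and 7.18 to 8.59 in sham bone at 6 weeks, and from 5.86 to 8.19 in DMM and 6.37 to 7.89 in sham bone at 1 week. The summed B cell level ranged from 5.77 to 6.02 in DMM and 5.16 to 6.22 in sham bone at 6 weeks, and from 4.29 to 5.94 in DMM and 4.09 to 5.28 in sham bone at 1 week. The summed megakaryocyte level ranged from 6.9995 to 7.91 in DMM and 6.64 to 7.76 in sham bone at 6 weeks, and from 5.88 to 7.33 in DMM and 6.44 to 7.24 in sham bone at 1 week.

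Higher means at 6 weeks were also found for 6 of 6 skeletal muscle markers (median 0.66, 4 with an unadjusted p under 0.05). The 1 called was Mylpf, a fast muscle myosin light chain, with a difference of 1.16 ± 0.26 (limma adjusted p = 0.0486). The summed muscle level ranged from 0.89 to 1.91 in DMM and 0.47 to 2.51 in sham bone at 6 weeks. At 1 week it ranged from 0.0829 to 0.52 in DMM and -0.0396 to 0.0429 in sham bone, so in this sum the times did not overlap. The mean of the log2 levels did overlap after DMM (-3.45 to -1.55 at 6 weeks, -4.00 to -3.02 at 1 week). After sham this mean did not overlap, by a small margin (lowest -3.970 at 6 weeks, highest -3.978 at 1 week). Of the cartilage markers 6 of 8 had a higher mean (median 0.81, 0 called, 4 with an unadjusted p under 0.05), and so did 6 of 6 adipocyte markers (median 0.68, 0 called, 1 with an unadjusted p under 0.05). The adipocyte average joined opposite directions in the surgeries. After sham 6 of 6 were higher (median 1.64, 0 called, 4 with an unadjusted p under 0.05), and after DMM 6 of 6 were lower (median -0.17, 0 called). Over all genes, 55.2% were higher after sham and 53.6% after DMM. Of all 43268 probes, 3174 had an unadjusted p under 0.05 after sham (limma), and 0 were called after either surgery. The summed cartilage level ranged from 4.10 to 5.80 in DMM and 4.49 to 5.96 in sham bone at 6 weeks, and from 4.16 to 6.24 in DMM and 4.10 to 5.17 in sham bone at 1 week. The summed adipocyte level ranged from 4.78 to 6.08 in DMM and 4.17 to 7.11 in sham bone at 6 weeks, and from 4.18 to 6.53 in DMM and 3.84 to 4.66 in sham bone at 1 week.

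Lower means were found for 7 of 9 osteoblast and bone matrix markers (median -0.50, 0 called, 3 with an unadjusted p under 0.05), 4 of 5 osteocyte markers (median -0.20, 0 called, 1 with an unadjusted p under 0.05) and 5 of 6 endothelial markers (median -0.39, 0 called, 2 with an unadjusted p under 0.05). The summed osteoblast level ranged from 10.16 to 11.18 in DMM and 9.81 to 11.14 in sham bone at 6 weeks, and from 10.54 to 11.24 in DMM and 9.999 to 10.997 in sham bone at 1 week. The lists of synovial lining and tendon (4 of 5 tested), neutrophils and macrophages had 0 calls and medians of -0.33, -0.14 and 0.27. The part of these cell types in the TIMP results was not tested.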

How the data were processed

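Per the file headers, Feature Extraction 10.7.3.1 made the scanner files, from 100 ng of RNA per joint labelled in 1 colour. The deposited values used are each spot's background-corrected intensity (gProcessedSignal) and its call above background. A separate table of values from the authors was deposited too, read here as log2 and, per the submitters' processing notes, made with limma 3.20.9, with other steps not given in the sources used here. Control spots, outlier spots and 342 probes with no usable spot on some array were left out, and 0 spots of the TIMP probes were flagged, saturated or replaced by a surrogate. Values are log2 intensity minus the array's 75th percentile. One mean per group was fitted to 43268 probes on 16 arrays in limma 3.58.1 (lmFit, contrasts.fit, eBayes, 12 residual degrees of freedom), with 2-sided p-values adjusted by Benjamini-Hochberg and a threshold of 0.05. Where 1 probe had to stand for a gene, the one with the highest mean was used. From each gene list and comparison up to 2 genes with the smallest p were named, in addition to all 9 TIMP probes. The called cell type markers were named after their values were seen. Correlations used 100000 permutations over 16 arrays and exact permutation within a slide, both irrespective of group. One gene among those that followed Timp3 is not reported here. Motif searches used RefSeq promoters, found for 4 of 4 genes. The members, lists and rules were chosen with earlier results of these data known. Alternatives were slide as a block, quantile normalization, normexp with an offset of 50, the authors' table, other filters, 1 probe a gene, and each array left out. The fit was tested on simulated data. R 4.3.3 (jsonlite 2.0.0 and data.table, version 1.17.8) and Python 3.11.15 (numpy 2.4.6, pandas 2.3.3, scipy 1.17.1, matplotlib 3.10.9) were used. No annotation of mm9 was at hand, so the exon or UTR of a probe was not analysed here.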

Additional observations from a re-analysis of the deposited data

Results flagged for a closer look

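The intron-crossing Timp2 probe in sham bone at 1 week had 1 array far from the others. Replicate 1 had a level of 1.53, against 2.05 to 2.13 on the other 3 arrays. Over the 9 probes and 4 groups, 36 such groups were examined, and chance alone marks about 1 in 20.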

How the results depend on the processing

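No paired analysis was possible because no label links a DMM joint with a sham joint, or a joint at 6 weeks with one at 1 week. For the TIMP probes and the named genes, 518 of 531 values under another setting kept their sign and their side of the threshold, and 5 turned their sign. Much of this agreement was built in. Slide as a block and the filters leave an estimate unchanged, and 0 probes were called in any of these settings outside the comparison with time over both surgeries. There, Timp1, Mmp9 and Adamts4 kept their calls in 6 of 7 settings each, and Fosl2 in 4 of 7. The cause of the following changes was not tested. The signs that turned were those of small differences. On the authors' deposited table, Timp1 gave -0.0319 for DMM minus sham at 6 weeks, the third Timp3 probe 0.0123 for DMM minus sham over both times, and the intron-crossing Timp2 probe -0.0350 for DMM minus sham at 1 week. That last value was -0.0143 with normexp, and the second Timp4 probe gave 0.00164 for DMM minus sham over both times after quantile normalization. Of 43268 probes, 360 were called with time over both surgeries. This became 916 with slide as a block, 644 with normexp, 0 with no filter on dim probes (7592 at an unadjusted p under 0.05, of 56263), 717 with detection asked on all 16 arrays, and 0 to 2405 with 1 array left out. The count was 2405 without replicate 2 and 0 without replicate 1 of sham at 6 weeks. With 1 array left out, 0 to 3 probes were called with time after DMM and 0 to 1 after sham.

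With 1 array left out, 20 results for single TIMP probes changed sign. For DMM minus sham at 1 week the ranges were -0.13 to 0.13 (brighter Timp2 probe), -0.14 to 0.19 (intron-crossing Timp2 probe), -0.28 to 0.0652 (second Timp3 probe), and -0.0499 to 0.32, -0.0215 to 0.24 and -0.57 to 0.0229 (the Timp4 probes in order). At 6 weeks they were -0.16 to 0.41 (Timp1), -0.22 to 0.15 (brighter Timp2 probe) and -0.91 to 0.17 (the third Timp4 probe). For DMM minus sham over both times they were -0.12 to 0.0633 (brighter Timp2 probe), -0.15 to 0.0757 (the third Timp3 probe), -0.18 to 0.00211 and -0.0716 to 0.0584 (first and second Timp4 probes). For the difference of the DMM effects they were -0.21 to 0.18 (brighter Timp2 probe), -0.22 to 0.0606 (first Timp3 probe) and -0.68 to 0.40 (the third Timp4 probe). With time after DMM they were -0.0573 to 0.28 (second Timp3 probe) and -0.0815 to 0.51 (the third Timp4 probe). That last probe also gave -0.23 to 0.85 after sham and -0.0322 to 0.51 over both surgeries.

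Of the Pearson correlations, Timp1 with Timp2 did not pass the threshold on the second slide (0.55) or without the 2 farthest arrays (0.66), and it was 0.80 without replicate 2 of sham at 6 weeks. Timp3 with Timp4 did not pass on either slide (0.69 and 0.35), after quantile normalization (0.59), without that array (0.52) or without the 2 farthest (0.56). By Spearman it passed in the last 3 of these settings (permutation p adjusted 0.0484, 0.0382 and 0.0412) and on neither slide. Without that array, Timp1 passed with Timp3 (-0.55) and with Timp4 (-0.67), and Timp2 with Timp4 (-0.59), and their values without the 2 farthest arrays were -0.49, -0.52 and -0.16. Timp2 with Timp3 turned positive on the first slide (0.0106) and after quantile normalization (0.0188). With group means removed, a setting added after the data were seen, Timp1 had -0.18 with Timp3 and 0.0324 with Timp4, and Timp2 had 0.15 with Timp4.

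The precision is limited by the number of arrays and, for the dimmest probes of Timp3 and Timp4, by signals near background.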
